A study of Mus musculus with 16 samples.

Results

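Aminoacyl-tRNA synthetases are the enzymes that join each amino acid to the transfer RNA that carries it to the ribosome. The 36 genes described here are 20 that encode the cytosolic enzymes and 16 that encode the separate mitochondrial enzymes, taken as a fixed list of names from 45513 genes in the count tables. All 36 were found, and all 36 were among the 15841 genes with enough counts to be tested. The list was not chosen by any measured value of the members, although it was drawn up when other results of these data were known.

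Every protein made in the cytosol depends on the cytosolic enzymes, and most of them are made from a gene of their own, apart from the mitochondrial enzyme for the same amino acid, which is encoded in the nucleus and imported. Glycine and lysine are exceptions, since Gars and Kars each supply both compartments. The colon epithelium contains absorptive colonocytes and secretory cells, chiefly goblet cells, which make and release large amounts of mucin and of proteins that accompany it. Several cytosolic synthetase genes are also known targets of ATF4, a transcription factor whose translation rises when amino acids run short or when proteins fold poorly in the endoplasmic reticulum.

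The data were RNA sequencing counts from sorted colon epithelium of 8 mice of genotype Atoh1(WT)CreERT2; Rosa26tdTom/+. Tamoxifen switches on their red reporter tdTom in cells whose Atoh1 gene is active. From each mouse, live EpCAM+ cells that carried the reporter (tdTom+, 8 libraries) and live EpCAM+ cells that did not (tdTom-, 8 libraries) were sorted from crypt-enriched fractions, so both groups shared the alleles and the drug. The mice were males and females of C57BL/6 background aged 8 to 16 weeks. By the labels, and by the study's methods for this comparison, tamoxifen was given on 3 days at 1 mg each day. The methods' section on sequencing gives 3 mg and collection 24 h later. By the study's methods, the mice were homozygous for the Atoh1 allele and carried a single copy of the reporter. The reporter is permanent once switched on and follows the Atoh1 locus, so it marks what a cell or its parent expressed, and the tdTom- group is a mixture. EpCAM selects epithelium, and the 8 goblet cell markers were higher in tdTom+ and the 10 absorptive markers lower. The 7 enteroendocrine markers and the 5 stem cell markers tested were lower in tdTom+, as were 5 of 8 proliferation genes.

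Library totals were 16482530 to 24218367 counts in tdTom+ and 18318172 to 20668605 in tdTom-, except for the tdTom- library of mouse 4, which held 45791503. The 36 genes together took 0.290 to 0.400% of the counts in tdTom+ (median 0.341%) and 0.227 to 0.341% in tdTom- (median 0.274%). These are shares of RNA, and in sorted bulk samples fewer cells of a type and less RNA per cell cannot be told apart. Summed immune markers stood at 5.94 to 12.4 counts per 1000000 counts (CPM) in tdTom+ and 10.5 to 36.7 in tdTom-, and their part in the results below was not tested. A single tdTom+ library, that of mouse 1, stood apart for Lars2 and is described with that gene.

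Most of the cytosolic synthetase genes were higher in the labeled secretory cells, whereas the mitochondrial genes had calls in both directions. At an adjusted p under 0.01 (edgeR's quasi-likelihood test over all 15841 genes), 12 of the 20 cytosolic genes, or 60.0%, were higher in tdTom+ and 0 were lower. Over all genes tested, 25.5% were called higher and 25.5% lower. Wars, Tars and Cars, for tryptophan, threonine and cysteine, led the group. Of the 16 mitochondrial genes, 2 were higher (12.5%) and 5 were lower (31.3%). The median log2 fold change was 0.30 over the cytosolic genes and -0.05 over the mitochondrial genes, beside 0.0039 over all genes tested. With total counts as the only scaling, 7 cytosolic and 0 mitochondrial genes were called higher, and mice 1 to 3 alone gave 7 and 0 as well. The shares called over all genes were not taken in these fits, so the drop cannot be read as particular to the members. Their cytosolic medians were 0.25 and 0.305, beside -0.0479 and 0.0046 over all genes.

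Because both libraries of a mouse come from the same animal, the comparison was also fitted with the mouse as a replicate block. With the block 14 cytosolic genes were higher and 0 lower, the 2 added genes being Farsa and Farsb, and 4 mitochondrial genes were higher and 5 lower, the 2 added genes being Aars2 and Nars2. The shares over all genes with the block were 28.4% higher and 28.9% lower. The CPM ranges of both groups did not overlap for 6 of the 36 genes, all higher in tdTom+, a share near the 15.2% over all genes tested. All 6 were among the 20 cytosolic genes, and 0 of the 16 mitochondrial genes had such ranges. For the lower direction, 0 of the 36 genes had ranges that did not overlap, against 15.3% of all genes.

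**Figure D1:**
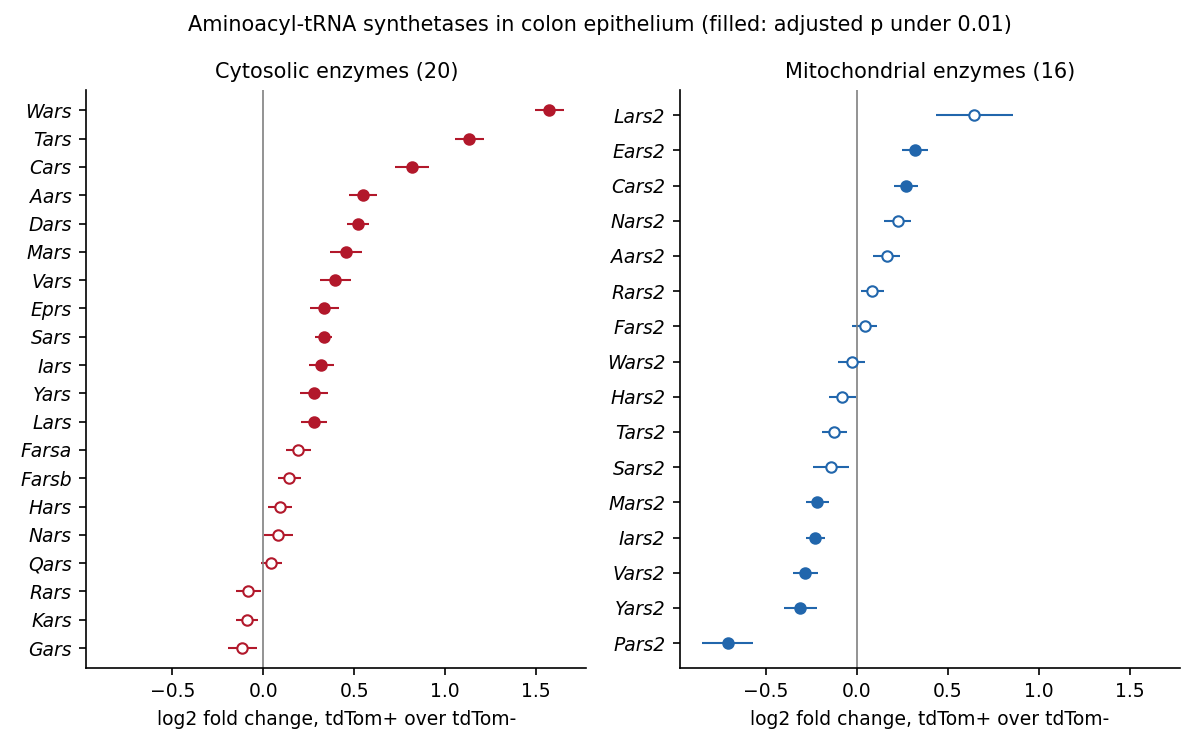
Log2 fold change of tdTom+ over tdTom- (horizontal axis) for the 20 cytosolic genes (left, red) and the 16 mitochondrial genes (right, blue), 8 libraries a group. Bars are the standard error of the edgeR estimate, and filled points passed an adjusted p under 0.01. The cytosolic genes run from -0.11 (Gars) to 1.57 (Wars), with 17 of 20 above 0, and the mitochondrial genes from -0.71 (Pars2) to 0.65 (Lars2), with 7 of 16 above 0.

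Wars, which charges tRNA with tryptophan, showed the largest change of the 36 genes. Its gene lies on chromosome 12, at 108860030 to 108894174 on the minus strand of GRCm38. Wars stood at 255 to 343 CPM in tdTom+ (median 336) and at 91.6 to 125 CPM in tdTom- (median 106). Every tdTom+ library was above every tdTom- library, and the difference was seen in 8 of 8 mice. The log2 fold change was 1.57 ± 0.08 (SE), or 2.97-fold, with an adjusted p of 5.32e-13 (edgeR). Per kilobase of exon, Wars had a level of 91.8 ± 10.2 RPKM (CPM per kilobase, SD, n = 8) in tdTom+ and 30.9 ± 3.22 in tdTom-. That placed it at rank 1 of the cytosolic genes in tdTom+ and at rank 4 in tdTom-.

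Tars, the threonine enzyme, lies on chromosome 15 at 11383663 to 11399658 on the minus strand. Its level was 137 to 182 CPM in tdTom+ (median 159) against 52.3 to 80.9 CPM in tdTom- (median 75.3). The ranges were apart, with the tdTom- library of mouse 2 lowest of all. Tars was 2.19-fold higher (log2 fold change 1.13 ± 0.08 SE, edgeR adjusted p = 9.59e-11) and moved from rank 6 to rank 3 of the cytosolic genes by RPKM.

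Cars, the cysteine enzyme, had a lower level than either. It measured 38.6 to 55.7 CPM in tdTom+ (median 48.5) and 21.0 to 34.0 CPM in tdTom- (median 27.3), again without overlap. The change was 1.76-fold (log2 0.82 ± 0.09 SE, edgeR adjusted p = 1.92e-07).

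Aars, the alanine enzyme on chromosome 8 at 111033144 to 111057664, stood at 130 to 176 CPM in tdTom+ (median 164) and 90.1 to 125 CPM in tdTom- (median 111). Its 2 groups were apart, and it was 1.46-fold higher (log2 0.55 ± 0.08 SE, edgeR adjusted p = 2.35e-06). Dars, the aspartate enzyme, ran from 72.8 to 104 CPM in tdTom+ (median 91.5) and from 56.6 to 69.0 CPM in tdTom- (median 63.7). Those ranges too were separate, at a log2 fold change of 0.52 ± 0.06 (SE, edgeR adjusted p = 3.58e-07). Sars, which supplies serine, completed the 6 genes without overlap, with 120 to 138 CPM in tdTom+ against 95.6 to 112 CPM in tdTom- and a log2 fold change of 0.33 ± 0.05 (SE, edgeR adjusted p = 5.11e-06).

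The other 6 cytosolic genes that passed the test had groups that overlapped, although each was higher in tdTom+ in all 8 mice. Mars, for methionine, measured 61.3 to 81.0 CPM in tdTom+ (median 72.3) and 40.2 to 64.0 CPM in tdTom- (median 52.2). The lowest tdTom+ value thus lay just under the highest tdTom- value, and the log2 fold change was 0.45 ± 0.09 (SE, edgeR adjusted p = 0.000138). Vars, for valine, measured 184 to 239 CPM in tdTom+ (median 210) and 123 to 197 CPM in tdTom- (median 169), a log2 fold change of 0.40 ± 0.09 (SE). Iars, for isoleucine, was at 84.7 to 115 CPM in tdTom+ (median 103) and 69.6 to 93.1 CPM in tdTom- (median 81.6), with a log2 fold change of 0.32 ± 0.07 (SE). Yars, for tyrosine, was at 64.5 to 83.7 CPM in tdTom+ (median 77.9) and 45.4 to 70.7 CPM in tdTom- (median 66.3), with a log2 fold change of 0.28 ± 0.08 (SE). Lars, for leucine, and Eprs, a single protein that charges both glutamate and proline, rose by 0.28 and 0.33 on the log2 scale. Eprs ran from 136 to 187 CPM in tdTom+ (median 176) and from 108 to 158 CPM in tdTom- (median 135). Adjusted p-values of these 5 genes were between 0.000438 (Vars) and 0.0034 (Yars, edgeR).

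Of the 8 cytosolic genes that did not pass, Farsa and Farsb, which encode the subunits of the phenylalanine enzyme, were the nearest. Farsa had a log2 fold change of 0.19 (edgeR adjusted p = 0.0213, and 0.0037 in the blocked fit) and Farsb one of 0.14 (0.0527, and 0.0096 with the block). Both subunits were higher in tdTom+ in 8 of 8 mice. Qars, for glutamine, had the smallest change of the class, at 149 to 172 CPM in tdTom+ (median 157) and 140 to 183 CPM in tdTom- (median 150). The tdTom- range of Qars enclosed that of tdTom+, and the log2 fold change was 0.04 ± 0.06 (SE). Hars for histidine and Nars for asparagine had log2 fold changes of 0.09 and 0.08. Nars had the highest RPKM of the cytosolic class in tdTom- (68.8 ± 7.85, SD, n = 8), and ranked 2 in tdTom+, behind Wars.

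The last 3 genes had log2 fold changes under 0, none of which passed the test: Rars for arginine at -0.08, Kars at -0.09 and Gars at -0.11. Gars was lower in tdTom+ in 8 of 8 mice, with an adjusted p of 0.2209 (edgeR) and of 0.0301 in the blocked fit. Kars and Gars are the enzymes that also serve mitochondria. Without them, 12 of 18 cytosolic genes were higher and the median log2 fold change was 0.33. By RPKM, Nars, Gars and Kars held ranks 1 to 3 of the cytosolic class in tdTom-, and ranks 2, 5 and 4 in tdTom+.

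The cytosolic change was present in each animal. The per-mouse median over the 20 genes of the tdTom+ minus tdTom- difference in log2 CPM was between 0.18 and 0.36 (mean 0.29 ± 0.06, SD, n = 8). The 20 genes together held 2125 to 2604 CPM in tdTom+ (median 2510) and 1561 to 2086 CPM in tdTom- (median 1861), and the sum was higher in tdTom+ in 8 mice.

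**Figure D2:**
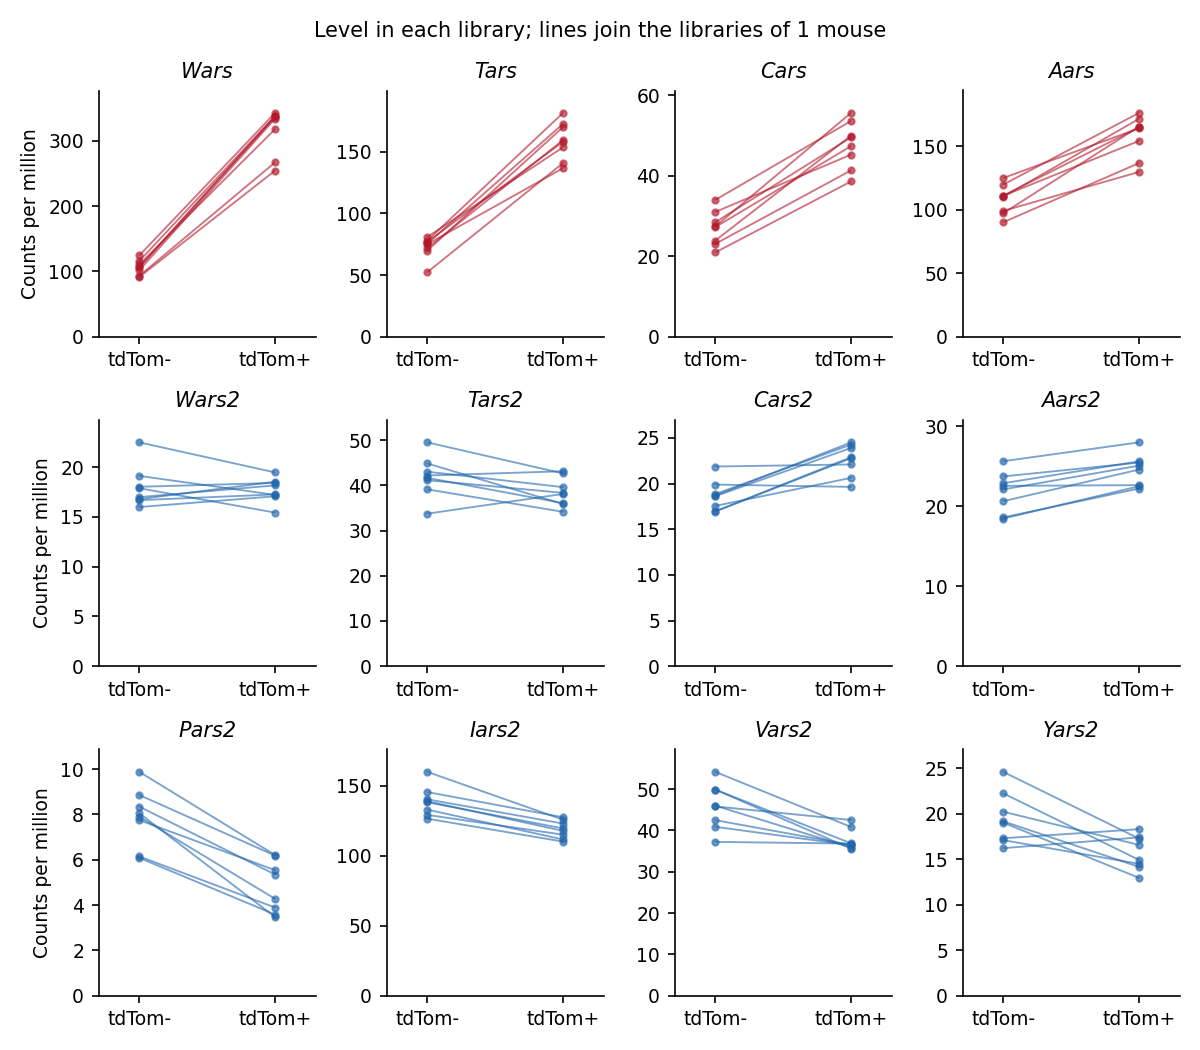
CPM (vertical axes, each from 0) of 12 genes in the tdTom- and tdTom+ library of each mouse, with a line for each of the 8 mice. The top row shows Wars, Tars, Cars and Aars, whose groups do not overlap. The middle row shows their mitochondrial partners, of which Wars2 has a median of 17.4 in tdTom- and 17.7 in tdTom+. In the bottom row, Pars2, Iars2 and Vars2 fall in all 8 mice and Yars2 in 6.

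The cytosolic genes were also read by complex and by catalytic fold. In animal cells 8 of the cytosolic enzymes (Dars, Eprs, Iars, Kars, Lars, Mars, Qars and Rars) assemble with scaffold proteins into the multisynthetase complex. Within the complex 5 of 8 genes were higher, with a median log2 fold change of 0.30, and outside it 7 of 12 were higher, with a median of 0.31. The 3 leading genes, Wars, Tars and Cars, are all outside. The scaffold genes Aimp1, Aimp2 and Eef1e1 had log2 fold changes of 0.12, -0.05 and 0.22, and 0 of 3 passed the test, although Eef1e1 passed with the mouse as a block (edgeR adjusted p = 0.022, and 0.0095 with the block). Synthetases fall into class I and class II by the fold of the catalytic domain. Of the 9 cytosolic class I genes, 7 were higher (median 0.32), and of the 10 class II genes, 4 (median 0.17). Eprs belongs to both classes and is in neither count. Over all genes tested, 25.5% were called higher. Whether these shares differ was not tested.

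Among the mitochondrial genes, Pars2, the proline enzyme, showed the largest decrease. It lies on chromosome 4 at 106651069 to 106655282 on the plus strand and is the least abundant of the 36 genes in CPM, with 58 to 508 counts per library. Pars2 stood at 3.47 to 6.20 CPM in tdTom+ (median 4.81) and 6.08 to 9.87 CPM in tdTom- (median 7.97). The groups met at the edge, while each mouse had less in its tdTom+ library. The log2 fold change was -0.71 ± 0.14 (SE, edgeR adjusted p = 0.000167).

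Yars2, Vars2, Iars2 and Mars2, for tyrosine, valine, isoleucine and methionine, were the other 4 that fell, by amounts between 0.22 and 0.31 on the log2 scale. Yars2 was at 13.0 to 18.3 CPM in tdTom+ (median 15.8) and 16.2 to 24.6 CPM in tdTom- (median 19.1), with a log2 fold change of -0.31 (edgeR adjusted p = 0.0064). It was lower in 6 of 8 mice, the least even of the 5. Vars2 was at 35.6 to 42.5 CPM in tdTom+ (median 36.7) and 37.2 to 54.2 CPM in tdTom- (median 45.9), with a log2 fold change of -0.28 (edgeR adjusted p = 0.0015). Iars2, the most abundant of the 5, was at 110 to 127 CPM in tdTom+ (median 119) and 126 to 160 CPM in tdTom- (median 138), a log2 fold change of -0.23 (edgeR adjusted p = 0.0011). The Iars2 ranges overlapped by about 1 CPM. Mars2 was at 19.7 to 26.0 CPM in tdTom+ (median 23.9) and 23.4 to 29.4 CPM in tdTom- (median 27.5), with a log2 fold change of -0.22 (edgeR adjusted p = 0.0069). Vars2, Iars2 and Mars2 were lower in all 8 mice. Among the 5 mitochondrial genes called lower, Yars2 and Mars2, closest to the threshold, were the calls lost when single mice were left out. The number of mitochondrial genes called lower was then 3 without mouse 1, 4, 6, 7 or 8 and 4 without mouse 2, 3 or 5, and the number called higher was 4 without mouse 4.

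Ears2 and Cars2 were the mitochondrial genes that rose. Ears2, for glutamate, had a log2 fold change of 0.32 (edgeR adjusted p = 0.000491) and was higher in 8 mice, with at least 20.1 CPM in each tdTom+ library (median 22.0) and 14.9 to 20.5 CPM in tdTom- (median 17.9). Cars2, for cysteine, had one of 0.27 (edgeR adjusted p = 0.0014) and was higher in 7 mice, with 19.6 to 24.5 CPM against 16.9 to 21.9 CPM. Both groups of libraries overlapped for each gene. Nars2 and Aars2 did not pass in the main fit but passed with the mouse as a block. Nars2 had a log2 fold change of 0.23 (edgeR adjusted p = 0.0141, and 0.0046 with the block). It also passed without a block in DESeq2 (DESeq2 adjusted p = 0.0095). Aars2 had a log2 fold change of 0.17 (edgeR adjusted p = 0.0557, and 0.0087 with the block).

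The other 7 mitochondrial genes passed in neither fit. Wars2, the tryptophan enzyme, had the smallest change, with 15.4 to 19.5 CPM in tdTom+ (median 17.7) and 15.99 to 22.5 CPM in tdTom- (median 17.4), a log2 fold change of -0.03 ± 0.07 (SE). Rars2 and Fars2 had log2 fold changes of 0.09 and 0.04, and Hars2, Tars2 and Sars2 of -0.08, -0.12 and -0.14. The seventh was Lars2.

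Lars2, the mitochondrial leucine enzyme on chromosome 9 at 123366940 to 123462664, had the highest RPKM of the mitochondrial class and the widest spread. It measured 296 to 1181 CPM in tdTom+ (median 459) and 256 to 420 CPM in tdTom- (median 368). The 1181 CPM came from the library of mouse 1, and the other 7 tdTom+ libraries lay between 296 and 693 CPM. The log2 fold change of 0.65 ± 0.21 (SE) did not pass the test (edgeR adjusted p = 0.0115), and without mouse 1 it was 0.34 (adjusted p = 0.0477). In the same library Gm15564, a predicted gene on chromosome 16 that was picked out after the values were seen, stood at 60.0 CPM, against 3.93 to 9.45 CPM in the other tdTom+ libraries and 3.13 to 6.02 CPM in tdTom-. Annotated transcripts of Lars2 and Gm15564 share a stretch of 72 bases at 98.6% identity, so counts of Lars2 are uncertain, and the part of that stretch in the result was not tested.

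As a class, the mitochondrial enzymes had calls in both directions. The share of counts from the mitochondrial genome itself was 2.23 to 6.92% in tdTom+ (median 4.99%) and 3.74 to 9.97% in tdTom- (median 7.45%). It was lower in tdTom+ in 8 of 8 mice, and its part in the results for either class was not tested. The per-mouse median difference in log2 CPM over the 16 genes was between -0.20 and 0.12 and above 0 in 4 of 8 mice. The 16 genes together held 789.5 to 1626 CPM in tdTom+ (median 923) and 746 to 951 CPM in tdTom- (median 860). Their sum was higher in tdTom+ in 6 of 8 mice. Leaving out Lars2, an exception made after its values were seen, turned that direction. The other 15 genes together held 446 to 494 CPM in tdTom+ (median 464) and 451 to 560 CPM in tdTom- (median 491). Without Lars2 the sum was higher in tdTom+ in 2 of 8 mice. Within each mouse, the cytosolic median exceeded the mitochondrial median by 0.18 to 0.43 on the log2 scale (mean 0.32 ± 0.09, SD, n = 8), in 8 of 8 mice.

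**Figure D3:**
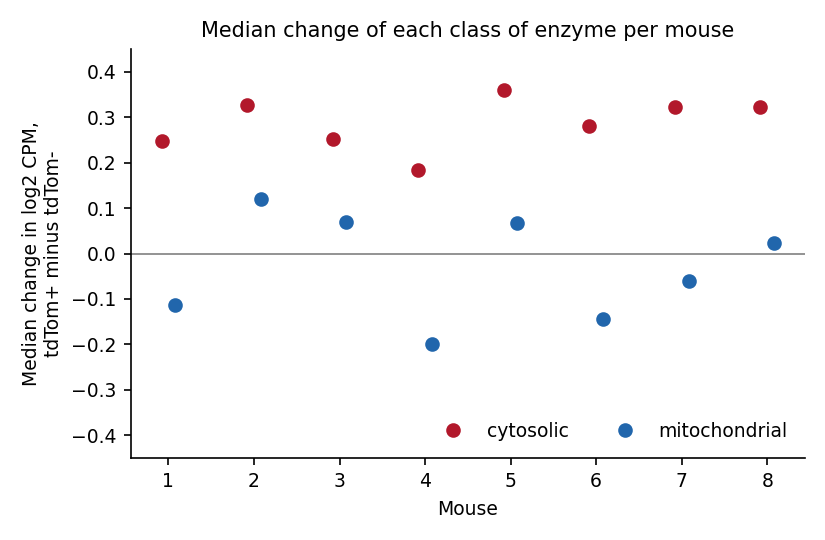
Median over each class of the tdTom+ minus tdTom- difference in log2 CPM (vertical axis) for each of the 8 mice (horizontal axis), red for the 20 cytosolic and blue for the 16 mitochondrial genes. The red points lie between 0.18 and 0.36, and the blue points between -0.20 and 0.12, below the red point in every mouse.

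For 17 pairs of a cytosolic and a mitochondrial gene for the same amino acid, the log2 ratio of their RPKM values was taken within each library, where scaling between libraries cancels. The ratio moved toward the cytosolic gene in 14 of 17 pairs, and in 11 of them it did so in all 8 mice. It moved toward the mitochondrial gene in all 8 mice in 0 pairs. Eprs and Fars2 each enter more than once, so the pairs are not all separate. No such share was taken over other pairs of genes. Calls in opposite directions were held by 5 pairs: Yars up with Yars2 down, Vars with Vars2, Iars with Iars2, Mars with Mars2 and Eprs with Pars2.

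The tryptophan pair changed most. The RPKM of Wars was 10.2 times that of Wars2 in tdTom- and 30.7 times in tdTom+, a change in the log2 ratio of 1.59 ± 0.12 (SD, n = 8 mice, from 1.38 to 1.75). For threonine the change was 1.26 ± 0.18, and for Eprs over Pars2 it was 1.06 ± 0.25. The valine pair was the most even between mice, at 0.68 ± 0.06. Changes for methionine (0.69), tyrosine (0.59), cysteine (0.55) and isoleucine (0.54) were of similar size. Iars and Iars2 had nearly equal RPKM in tdTom- (ratio 0.993), and Iars was 1.45 times Iars2 in tdTom+. The exon lengths used were 5272 and 8885 bases, and in CPM Iars2 was above Iars in tdTom- (means 139 and 81.9). Levels compared between genes by RPKM depend on these lengths, whereas the change in a ratio does not. The cysteine pair differed from these in that both partners rose. Serine and alanine followed with changes of 0.48 ± 0.26 and 0.38 ± 0.18.

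Pairs without a clear shift were Eprs with Ears2 (0.0018 ± 0.16, above 0 in 4 mice), Hars with Hars2 (0.18 ± 0.24, in 6 mice) and Farsa with Fars2 (0.15 ± 0.16, in 7 mice). Hars and Hars2 lie head to head on chromosome 18 and overlap at their starts, and were counted by strand. The asparagine and arginine pairs had mean changes below 0, at -0.14 ± 0.16 and -0.17 ± 0.20, but neither was below 0 in every mouse. For leucine the mean was -0.26 ± 0.80, with the spread set by Lars2 in mouse 1. Farsb with Fars2 had a small change, 0.10 ± 0.07, that was above 0 in all 8 mice. The cytosolic partner had the higher RPKM in 13 of the 17 pairs in tdTom- and in 14 in tdTom+.

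**Figure D4:**
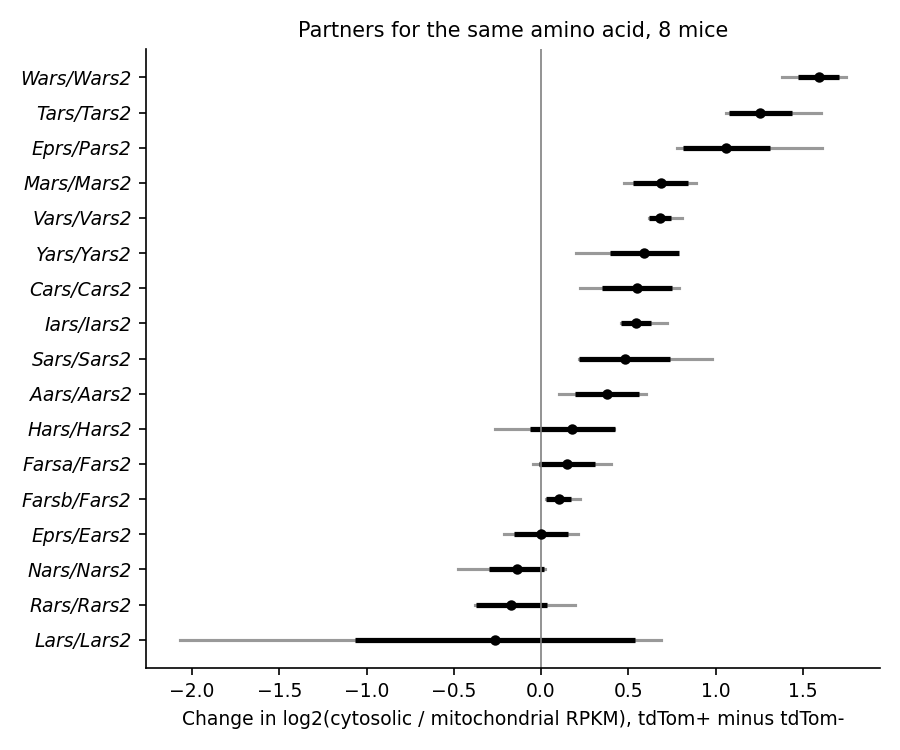
Change between tdTom- and tdTom+ in the log2 ratio of cytosolic to mitochondrial RPKM (horizontal axis) for 17 pairs of partners. Points are means over 8 mice, black bars the SD and grey lines the full range over mice. Wars/Wars2 is at 1.59, Eprs/Ears2 near 0, and Lars/Lars2 at -0.26 with the widest range, from -2.07 to 0.69.

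Further genes of the charging pathway were read from the same fit. Tarsl2, a further cytosolic threonine enzyme outside the 36 names, was higher in tdTom+ (log2 fold change 0.54, edgeR adjusted p = 1.33e-05). Of 4 proofreading genes, whose products clear wrongly charged tRNA, Prorsd1 was higher, with 17.3 to 27.3 CPM in tdTom+ and 6.22 to 8.91 CPM in tdTom- (log2 fold change 1.47, edgeR adjusted p = 1.3e-10), while Aarsd1 had the lowest value, -0.27, and did not pass. The mitochondrion makes glutaminyl-tRNA by amidation, and of the 3 genes for that enzyme Qrsl1 was lower (-0.32), Gatb had the highest value (0.05), and neither Gatb nor Gatc passed.

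Charged tRNA is handed to the ribosome by elongation factors. All 5 cytosolic elongation factor genes tested were higher, from Eef1d at 0.23 to Eef1a1 at 0.53 on the log2 scale. Of 9 mitochondrial translation factor genes, 0 were higher and 2 were lower (22.2%). Over all genes tested, 25.5% were called in each direction, so the share called lower was not above that of all genes. The 2 were Tufm (-0.55), which is the mitochondrial counterpart of Eef1a1, and Mtfmt (-0.33), which formylates the initiator tRNA. Mtrf1l had the highest value, 0.12, and did not pass. Mitochondrial ribosomal proteins had calls in both directions, with 14 of 76 tested genes higher (18.4%) and 16 lower (21.1%). Both shares lay under the 25.5% over all genes tested. With the mouse as a block, 17 were higher and 21 lower, beside 28.4% and 28.9% over all genes tested. The median was 0.02, and the range ran from -1.40 (Mrps6) to 0.71 (Mrpl52).

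The amino acid response list holds 26 genes reported as ATF4 targets or partners, of which 25 were tested, Trib3 being too low. The median log2 fold change in tdTom+ was 0.23. Of the 25, 12 were higher (48.0%) and 2 lower (8.0%), beside 25.5% each way over all genes tested. Those counts were 12 and 2 without each mouse in turn, and 12 and 6 with the mouse as a block. Atf4 itself stood at 256 to 338 CPM in tdTom+ (median 293) and 136 to 204 CPM in tdTom- (median 162), with no overlap and a log2 fold change of 0.86 (edgeR adjusted p = 1.06e-08). Asns, which makes asparagine, stood at 71.3 to 111 CPM in tdTom+ (median 93.9) and 23.3 to 40.6 CPM in tdTom- (median 29.2), 3.06-fold higher (edgeR adjusted p = 1.24e-10). Nupr1, a stress-induced chromatin protein, had the highest value of the list at 3.48.

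Other members of the list did not move with these. Atf3 had the lowest value, -0.47, which did not pass (edgeR adjusted p = 0.1157) but passed as lower with the mouse as a block (1.95e-05). Ddit3, which encodes the stress factor CHOP, was at 9.11 to 19.9 CPM in tdTom+ (median 11.4) and 9.17 to 24.04 CPM in tdTom- (median 15.5). Its groups overlapped, with a log2 fold change of -0.36 (edgeR adjusted p = 0.098, and 0.000314, lower, with the block). Shmt2 at -0.40 and Cebpg at -0.35 were the genes called lower. Of the kinases that phosphorylate eIF2 alpha and so favor Atf4 translation, 2 of 4 were higher, Eif2ak3 (PERK, the endoplasmic reticulum sensor) at 1.81 and Eif2ak4 (GCN2, the sensor of uncharged tRNA) at 0.78. Eif2ak1 had the lowest value, -0.06. These are levels of mRNA and do not measure kinase activity.

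**Figure D5:**
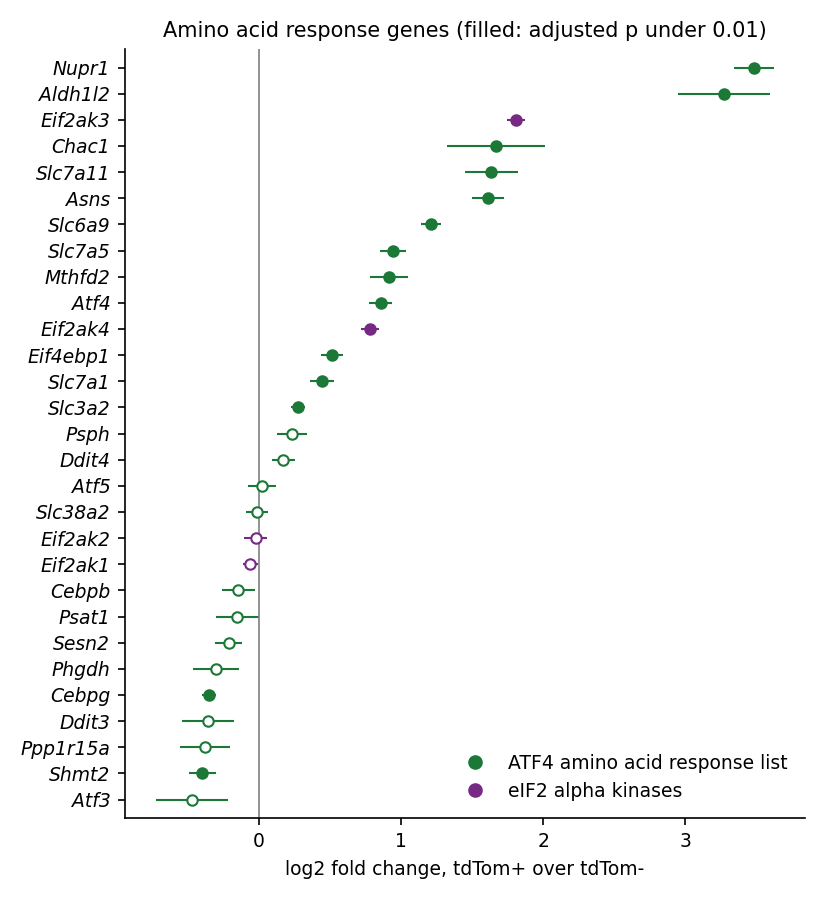
Log2 fold change of tdTom+ over tdTom- (horizontal axis) for 25 genes of the ATF4 amino acid response list (green) and 4 eIF2 alpha kinases (purple), 8 libraries a group. Bars are the standard error, and filled points passed an adjusted p under 0.01. Nupr1 is highest at 3.48 and Atf3 lowest at -0.47, with Eif2ak3 at 1.81.

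The promoters were read for the composite site at which ATF4 and C/EBP proteins bind as a pair, here written as TGATGNAA and searched on both strands. RefSeq windows on GRCm38.p6, from 250 bases before to 50 after the transcription start, matched 27 of the 36 genes in 28 windows. The letters were found in 5 of the 28 windows (17.9%), in 1304 of all 32851 windows (3.97%), and in 6 of 28 windows of the amino acid response list (21.4%). The windows below are printed because they carry these letters beside the genes whose levels are given above, 5′ to 3′ on the strand of the gene, with the motif or its reverse complement in capitals.
Aars, chr8:111033840-111033869, plus strand: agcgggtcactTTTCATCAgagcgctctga
Tars, chr15:11399655-11399684, minus strand: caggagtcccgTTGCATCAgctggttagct
Iars, chr13:49682126-49682155, plus strand: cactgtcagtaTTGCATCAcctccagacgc
Yars, chr4:129189895-129189924, plus strand: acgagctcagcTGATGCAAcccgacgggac
Gars, chr6:55037960-55037989, plus strand: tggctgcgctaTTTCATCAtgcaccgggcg
Asns, chr6:7693214-7693243, minus strand: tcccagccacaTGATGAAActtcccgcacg
Nupr1, chr7:126625562-126625591, minus strand: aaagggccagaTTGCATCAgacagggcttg
Atf3, chr1:191183425-191183454, minus strand: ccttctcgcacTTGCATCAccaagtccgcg

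In the printed windows, Aars held the letters at position 10 from its start, Tars at -15, Iars at 8, Yars at 4 and Gars at -30. Of these 5 cytosolic genes, Aars, Tars, Iars and Yars were called higher in tdTom+, and Gars was not, at -0.11. In the whole cytosolic class 60.0% were called higher. Wars and Cars, which led the class with Tars, had no match, for want of either a window or the letters. Whether a match goes with a call was not tested. The longer form TGATGNAAT, which contains the shorter one, was in 3 of the 28 windows (10.7%), those of Gars and Iars among them, against 0.965% of all windows. The 6 genes of the amino acid response list that held the shorter letters were Asns (-23), Atf3 (-110), Chac1 (-193), Nupr1 (-110), Slc7a11 (-66 and -47) and Trib3 (15). Asns, Chac1, Nupr1 and Slc7a11 were called higher, Atf3 had the lowest value of the list (-0.47) and was lower in the blocked fit, and Trib3 was not tested. The form of the motif was chosen with the sequences at hand. A match is a description of letters, and the absence of a match in a window says only that they do not occur in it.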

How the data were processed

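The libraries were stranded mRNA, read as single ends of 50 bases. The authors aligned them to GRCm38.p3 with TopHat2 2.1.1 and deposited, per library, featureCounts counts of reads per gene on the reverse strand. The submitters' processing notes name Subread 1.5.2 and the file headers featureCounts 1.5.0-p1. The exon length per gene in those files is a deposited length in bases, a value of another kind, used here for RPKM. Symbols came from GENCODE M21 (44671 of 45513 genes). Groups came from the sample labels and mice from the number in the sample title.

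All genes passing edgeR's expression filter were fitted at once (edgeR 4.0.16, R 4.3.3, TMM scaling, quasi-likelihood test, Benjamini-Hochberg adjustment, threshold 0.01, no mouse term). RPKM and CPM used the TMM-scaled totals, and log2 CPM a prior count of 2. The 2 libraries of a mouse come from the same animal, and their deviations from the group means correlated at 0.22 to 0.41, above that with any other mouse (0.17 at most). The blocked fit is given where it changes a call. No 2 libraries agreed within sampling noise. On simulated counts for 15724 genes, the test recovered 100 of 100 genes changed by a log2 fold of 1 and 100 of 100 changed by 2, with 3 false calls. The simulation changed 200 genes and had no mouse effect. Most calls given here were smaller than a log2 fold of 1, and recovery at such sizes was not simulated.

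Alternatives were the block, DESeq2 1.42.0, limma-voom (limma 3.58.1), 3 scalings, 2 filters, a threshold of 0.05, each mouse left out, the mice of a single number series, and Gars and Kars left out. The members, gene lists and tests were chosen with earlier results of these data known. By rule, values by library are given for the called members with the 6 largest changes each way (only 5 fell), the smallest change of each class, and opposite pairs, and for each list the highest and lowest gene plus Atf4, Asns and Ddit3. Lars2, Sars, Ears2, Cars2, Prorsd1, Gm15564 and the other genes named beyond that rule were chosen after their values were seen. A further synthetase gene and a promoter sequence are not reported here.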

Additional observations from a re-analysis of the deposited data

Results flagged for a closer look

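Dixon's test marks a library that lies far from the other 7 of its group. It marked 4 of 72 sets of 8 libraries, where chance alone gives about 3.6, and all 4 marks fell on mouse 2. In its tdTom- library, Hars was at a log2 CPM of 5.04 (32.8 CPM, with the others at 41.3 to 47.1 CPM), Tars at 5.71 (52.3 CPM, the others at 69.9 to 80.9 CPM) and Yars at 5.51 (45.4 CPM, the others at 59.2 to 70.7 CPM). In its tdTom+ library, Yars was at 6.01 (64.5 CPM, the others at 74.7 to 83.7 CPM). Each was low. The 20 cytosolic genes also had their lowest sums of both groups in mouse 2, 1561 CPM for tdTom- and 2125 for tdTom+. Without mouse 2, Tars kept its call, as it did under every alternative.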

How the results depend on the processing

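The fit with the mouse as a replicate block, a paired analysis, raised the mitochondrial genes called higher to 4 and the cytosolic ones to 14, and 0 called members lost their call. Total counts as the only scaling gave 7 cytosolic and 0 mitochondrial genes higher. With no filter on low counts, 3 mitochondrial genes were lower. At a threshold of 0.05, 4 mitochondrial genes were higher. Mice 1 to 3 alone gave 7 cytosolic genes higher and 0 mitochondrial genes higher and 1 lower, and mice 5 to 8 alone gave 1 mitochondrial gene higher and 3 lower. With each mouse left out in turn, 11 to 13 cytosolic genes were higher, 2 to 4 mitochondrial genes were higher and 3 to 4 were lower. The causes were not tested, except that the subsets hold fewer mice. Shares called over all genes were taken for the main and blocked fits only, so the other counts have no such share beside them. In these fits 0 cytosolic genes were called lower. The class medians kept their sign under each alternative run, at 0.25 to 0.35 for the cytosolic and -0.11 to -0.0053 for the mitochondrial genes. DESeq2, limma-voom, RLE and upper-quartile scaling and a filter of 10 counts in every library kept the counts within 1.5 times. Of 648 values of single members under an alternative, 595 kept direction and side of the threshold, 37 lost a call, 10 gained one and 6 changed sign, none of these in a called member. The changed signs were Qars at -0.009 and Fars2 at -0.0094 with total counts only, and Wars2, which ran from -0.046 to 0.0272 as mice were left out (above 0 without mouse 4 or 6), at 0.0133 in mice 1 to 3 and 0.0059 in mice 5 to 8. Aars, Cars, Dars, Mars, Tars, Wars and Pars2 were called in every fit. For the amino acid response list, whose alternatives were added after seeing the data, mice 1 to 3 gave 9 genes higher and 1 lower. Depth limits Pars2 most, at 58 counts in its lowest library.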
